A study of Mus musculus with 6 samples.

Results

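The Cyp2c genes of mouse chromosome 19 encode cytochrome P450 enzymes of the liver, and 10 of them were followed here among the 25690 genes of the series: Cyp2c29, Cyp2c37, Cyp2c38, Cyp2c39, Cyp2c40, Cyp2c44, Cyp2c50, Cyp2c54, Cyp2c68 and Cyp2c70. They were chosen by name, 9 by the symbol of their Ensembl identifier and 1, Cyp2c44, by an older symbol of the gene that GENCODE M21 lists as Cyp2c23. RNA of hepatic tissue was sequenced in 3 libraries of mice labelled as hepatic FTO knockout and 3 libraries of mice labelled as wildtype control. FTO is a demethylase of N6-methyladenosine (m6A), a mark on RNA, and the series compares the liver transcriptome between these genotypes. The labels give no strain, sex, age, diet or Cre driver, and they do not say whether each library came from a separate animal, so the p-values rest on how these 3 and 3 libraries vary, and that variation may be technical. In whole liver tissue, fewer cells of a type and less RNA per cell cannot be told apart.

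Cytochrome P450 enzymes of this family sit in the endoplasmic reticulum and insert oxygen into drugs, steroids and fatty acids, with electrons passed on by a reductase. Several mouse Cyp2c enzymes turn arachidonic acid into epoxides or hydroxylated fatty acids, and the epoxides are signalling lipids that soluble epoxide hydrolase breaks down. Cyp2c70 differs in its role, since it hydroxylates bile acids to make the muricholic acids typical of mice and rats.

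Expression was deposited as FPKM, which counts fragments per kilobase of transcript and per mapped total. All 10 Cyp2c genes reached a 6-library mean of 1 FPKM and were tested together with the other expressed genes, 10405 in all, with limma on log2(FPKM + 1). A gene is called here at a Benjamini-Hochberg adjusted p under 0.05. The depth inferred from the step size of low values was 34140000 to 42530000 fragments, an approximate value. Fto itself was at 2.76 ± 1.02 FPKM in knockout and 6.36 ± 0.324 FPKM in wild type (SD, n = 3 each), a call with an adjusted p of 0.0386 in limma that was lost without knockout replicate 1 or 3 or wild type replicate 1 or 2 (0.0662 to 0.145). Wild type replicate 3 differed more from the other wild type libraries than those did from each other: over 784 genes at 100 to 1000 FPKM, absolute log2 differences had medians of 0.42 and 0.291 for its pairs and 0.14 for the remaining wild type pair, while knockout pairs had 0.117 to 0.187. Markers of hepatocytes were abundant, although Alb, the albumin gene, was listed at 0 in knockout replicate 3 and wild type replicate 1 and at 25046 FPKM or more elsewhere. None of the 10 Cyp2c genes was listed at 0 in any library.

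Of these genes, 9 lie in 1 block of 918 kb (chromosome 19, 39269405 to 40187333, mm10), and Cyp2c44 lies 3.82 Mb further along (44005022 to 44029208). Their coding sequences hold 489 to 520 codons. Identity between coding sequences had a median of 75% over the 45 pairs and ran from 60.3% to 96.1%. The genes formed groups of close copies that also lie side by side. Cyp2c38 and Cyp2c39 were 94.2% identical, and Cyp2c29, which precedes them, was 89.1% and 89.5% identical to them. Cyp2c37, Cyp2c50 and Cyp2c54 were 95.1% to 96.1% identical to one another. Cyp2c68 was 97.1% identical to Cyp2c67, a neighbour outside the 10, and Cyp2c40 was 92.6% identical to Cyp2c68. Cyp2c70 and Cyp2c44 had no close copy, with at most 69.8% and 66.9% identity to any other Cyp2c gene in the table.

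**Figure D1:**
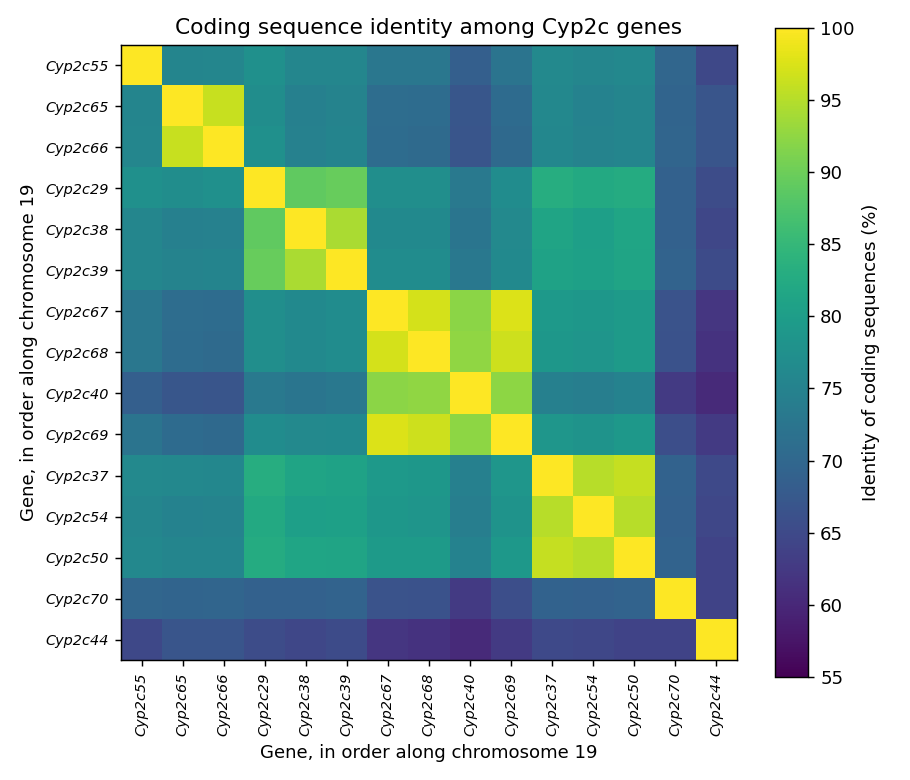
Identity of coding sequences (percent, colour) between 15 protein-coding Cyp2c genes, in their order along chromosome 19 on both axes. The bright squares are groups of close copies such as Cyp2c38 with Cyp2c39 at 94.2%, while Cyp2c70 and Cyp2c44 have no partner above 69.8% and 66.9%.

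Close copies can share fragments, and the sources used here do not give how such fragments were assigned. For this reason the share of 100-base windows of each transcript that occurred in no transcript of another gene was counted. It was 100% for Cyp2c29, Cyp2c38, Cyp2c39, Cyp2c44 and Cyp2c70. It was 90.6% to 95.3% for Cyp2c37, Cyp2c50 and Cyp2c54, 80.2% for Cyp2c68 and 55.9% for Cyp2c40. With windows of 50 bases it was 88.0% for Cyp2c39, 92.6% for Cyp2c38 and 27.9% for Cyp2c40. By this count alone, the values of Cyp2c40 and Cyp2c68, and of Cyp2c67 and Cyp2c69 beside them, are the least certain. Those of Cyp2c44 and Cyp2c70, which had no shared window of either length, are the least exposed to sharing. The count takes no account of level. Cyp2c39, at 0.431 to 3.52 FPKM, has a close copy at 11.2 to 46.8 FPKM, Cyp2c38. A few misassigned fragments could therefore make up much of the value of Cyp2c39, and this was not tested.

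The stretches upstream of 4 genes are shown because their RNA levels differed in different directions: Cyp2c38 and Cyp2c39 were called lower in knockout, Cyp2c70 was called higher, and Cyp2c29, their close relative, was not called. Each is 200 bases from the RefSeq promoter table (GRCm38.p6, the assembly of mm10), 5′ to 3′ along the gene. Those of Cyp2c38 and Cyp2c39 end at the RefSeq start, and those of Cyp2c29 and Cyp2c70 end 41 and 47 bases before it, since annotated transcripts cover the bases between. Capitals mark the letters CAAAGTCC, CAAAGTCT, AGGTCA or TATAAA on either strand.
Cyp2c38 (chr19:39463076-39463275, minus strand): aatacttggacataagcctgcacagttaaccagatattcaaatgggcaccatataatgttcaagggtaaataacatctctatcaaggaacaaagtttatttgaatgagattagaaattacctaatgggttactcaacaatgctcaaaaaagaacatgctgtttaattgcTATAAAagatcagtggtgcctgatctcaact
Cyp2c39 (chr19:39510622-39510821, plus strand): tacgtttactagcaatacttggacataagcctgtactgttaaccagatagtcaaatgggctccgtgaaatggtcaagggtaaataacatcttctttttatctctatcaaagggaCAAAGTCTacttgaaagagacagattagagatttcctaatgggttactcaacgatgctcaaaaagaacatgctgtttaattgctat
Cyp2c29 (chr19:39286844-39287043, plus strand): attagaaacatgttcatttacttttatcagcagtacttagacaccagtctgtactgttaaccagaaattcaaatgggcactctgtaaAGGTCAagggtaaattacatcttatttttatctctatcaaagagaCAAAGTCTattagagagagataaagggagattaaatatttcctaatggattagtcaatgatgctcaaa
Cyp2c70 (chr19:40187334-40187533, minus strand): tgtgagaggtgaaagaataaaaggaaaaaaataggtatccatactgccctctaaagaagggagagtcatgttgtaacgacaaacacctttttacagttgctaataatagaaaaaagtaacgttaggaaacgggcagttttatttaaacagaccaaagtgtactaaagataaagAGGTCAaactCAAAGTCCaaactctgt

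The upstream stretches of Cyp2c38 and Cyp2c39 were 89.6% identical over 221 aligned bases, and each was 82.0% or 81.9% identical to that of Cyp2c29. CAAAGTCC, the core of an element bound by HNF4A (a nuclear receptor that maintains hepatocyte gene expression), was found in the 250 bases before the start of 3 of the 8 genes with a RefSeq promoter entry, Cyp2c40, Cyp2c68 and Cyp2c70, and in 1.2% of all 32851 promoters. Its variant CAAAGTCT, searched after the sequences were seen, was found in Cyp2c29, Cyp2c37 and Cyp2c39 and also in 1.2% of all promoters. Matches in close copies are not independent: upstream, Cyp2c40 and Cyp2c68 were 95.4% identical over 217 aligned bases. AGGTCA, a site of many nuclear receptors, was found in Cyp2c29, Cyp2c70 and an alternative upstream start of Cyp2c39, and in 14.0% of all promoters. TATAAA was found in Cyp2c29 (in the bases after the stretch shown), Cyp2c38 and Cyp2c70 (there on the opposite strand and after the stretch shown), and in 12.4% of all promoters. TTNNGNAA, a C/EBP pattern, was found in 5 of the 8 genes and 36.8% of all promoters, and it overlapped none of the capitals shown. TTCNNNGAA, a STAT5 pattern, was found in 0 of the 8 and in 7.0% of all promoters. Both strands were searched. A match describes letters and says nothing of binding.

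The RNA levels of the 10 genes differed widely on the FPKM scale, which is per transcript length. In knockout the means ran from 496 ± 125 FPKM for Cyp2c29 through Cyp2c50, Cyp2c70, Cyp2c37, Cyp2c44, Cyp2c54, Cyp2c68, Cyp2c40 and Cyp2c38 down to 0.570 ± 0.129 FPKM for Cyp2c39 (SD, n = 3). In wild type the means ran from 694 ± 55.4 FPKM for Cyp2c29 through Cyp2c50, Cyp2c37, Cyp2c54, Cyp2c44, Cyp2c70, Cyp2c68, Cyp2c38 and Cyp2c40 down to 2.58 ± 0.814 FPKM for Cyp2c39 (SD, n = 3). Cyp2c70 was the third gene by level in knockout and the sixth in wild type, and Cyp2c38 and Cyp2c40 changed places. Neighbours in this order had overlapping libraries in knockout for Cyp2c29 and Cyp2c50, Cyp2c50 and Cyp2c70, Cyp2c37 and Cyp2c44, Cyp2c44 and Cyp2c54, and Cyp2c54 and Cyp2c68. In wild type the libraries of Cyp2c54 and Cyp2c44 overlapped, and those of the other neighbours did not.

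**Figure D2:**
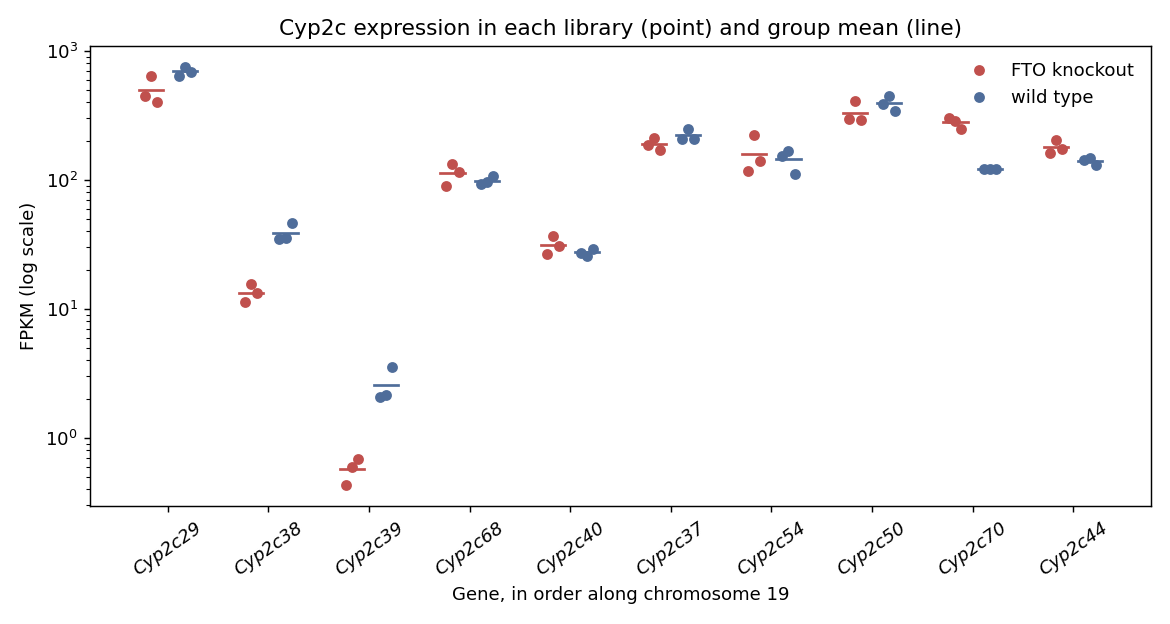
FPKM of the 10 Cyp2c genes on a log axis, in their order along chromosome 19; each point is a library, each line a group mean, FTO knockout left of wild type. Cyp2c38 and Cyp2c39 lie lower in all 3 knockout libraries, at 11.2 to 15.5 and 0.431 to 0.686 FPKM, and Cyp2c70 lies higher, at 249 to 303 FPKM.

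In knockout livers 1 of the 10 genes was called higher and 2 were called lower, while 7 were not called. Over all 10405 tested genes limma called 2.76%, with 1.11% higher and 1.65% lower. The libraries of the groups did not overlap for 5 of the 10 genes, against 24.5% of all tested genes. The median log2 change was -0.06 over the 10 genes and 0.00 over all tested genes, and the called genes lay on both sides of it. The counts were also 1 higher and 2 lower without wild type replicate 3, while 1 was lower without knockout replicate 1 or replicate 3. Over all tested genes 115 were higher and 172 lower, and 150 higher and 144 lower when libraries were rescaled to equal sums over nuclear genes.

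**Figure D3:**
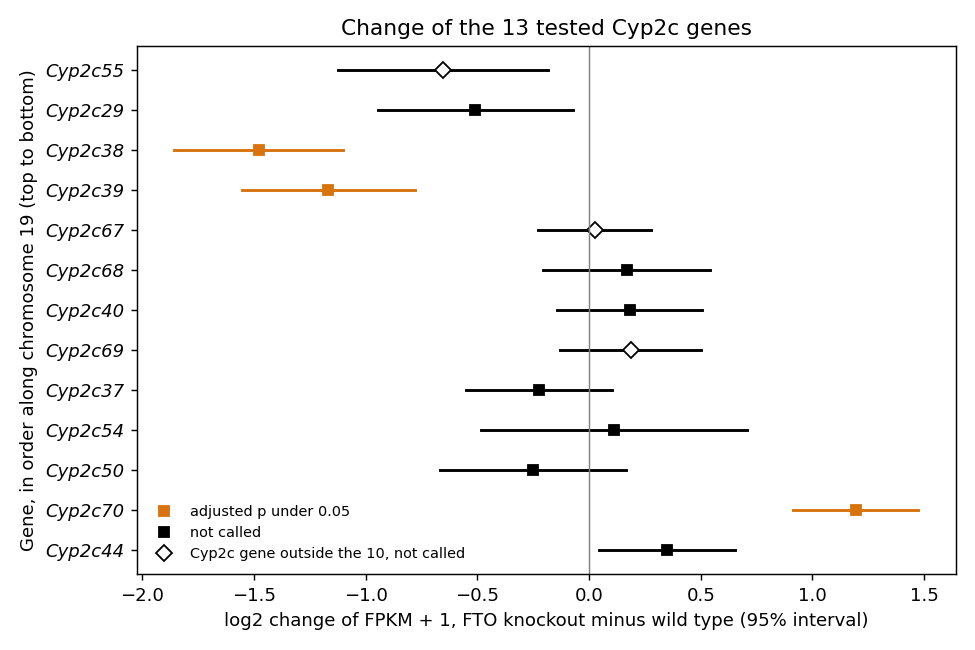
Log2 change of FPKM + 1, knockout minus wild type, with 95% intervals from limma for the 13 tested Cyp2c genes, from top to bottom in their order along chromosome 19. The adjacent genes Cyp2c38 (-1.48) and Cyp2c39 (-1.17) and, near the other end of the block, Cyp2c70 (1.19) are called.

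Cyp2c38 (ENSMUSG00000032808, chromosome 19, 39389556 to 39463075, minus strand) encodes an arachidonic acid epoxygenase and fell in knockout. Its levels were 11.2, 15.5 and 13.3 FPKM in knockout replicates 1, 2 and 3, against 34.7, 35.6 and 46.8 FPKM in wild type replicates 1, 2 and 3. Every knockout library lay below every wild type library, and wild type replicate 3 was the highest. The mean was 2.93-fold lower in knockout, and the log2 change was -1.48 (SE 0.16, 95% interval -1.86 to -1.10) with an adjusted p of 0.00533 in limma. It was called under all 12 alternative settings, with changes of -1.59 to -1.34 and adjusted p-values of 0.00121 to 0.039.

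Cyp2c39 (ENSMUSG00000025003, chromosome 19, 39510862 to 39568529, plus strand) also fell. This enzyme has been studied as a hydroxylase of retinoic acid. Its levels were 0.431, 0.593 and 0.686 FPKM in knockout replicates 1, 2 and 3, against 2.07, 2.15 and 3.52 FPKM in wild type replicates 1, 2 and 3. These correspond to about 27, 37 and 53 fragments in knockout and about 131, 143 and 224 in wild type at the inferred depth, the fewest among the 10 genes. The groups did not overlap, and wild type replicate 3 was again the highest. The mean was 4.52-fold lower in knockout, and the log2 change on the log2(FPKM + 1) scale, which understates low genes, was -1.17 (SE 0.17, adjusted p 0.0137 in limma). In limma the call was lost without knockout replicate 1 (adjusted p 0.0586) or replicate 3 (0.0585) and with no filter on low values (0.0534), and over all alternatives the adjusted p ran from 0.00314 to 0.0586.

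Cyp2c29 is the relative of these genes with the highest level, an epoxygenase known to be inducible by phenobarbital. Knockout replicates 1, 2 and 3 had 445, 638 and 404 FPKM, against 644, 754 and 683 FPKM for wild type replicates 1, 2 and 3. The groups did not overlap, but knockout replicate 2 came close to wild type replicate 1. The log2 change was -0.51 (SE 0.19, 95% interval -0.95 to -0.07), with an unadjusted p of 0.0276 in limma, 0.202 once adjusted, so it was not called. The sum of Cyp2c29, Cyp2c38 and Cyp2c39 was 510 ± 127 FPKM in knockout and 735 ± 55.2 FPKM in wild type (SD, n = 3 each), without overlap. Most of that sum is Cyp2c29.

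Cyp2c70 (ENSMUSG00000060613, chromosome 19, 40153353 to 40187333, minus strand), the bile acid hydroxylase, rose in knockout. It was at 303, 287 and 249 FPKM in knockout replicates 1, 2 and 3, against 121.1, 120.6 and 122.3 FPKM in wild type replicates 1, 2 and 3. Wild type libraries lay within 2 FPKM of each other, and the lowest knockout library lay above all of them. The mean was 2.30-fold higher in knockout, with a log2 change of 1.19 (SE 0.12, 95% interval 0.91 to 1.47) and an adjusted p of 0.00395 in limma. It was called under all 12 alternatives, with changes of 1.13 to 1.27. Of 17 tested genes of bile acid synthesis without Cyp2c70, 2 were higher, 0 fell and 15 were not called, with a median log2 change of -0.17. By an unadjusted p under 0.05 in limma 3 were higher and 5 lower, against 8.65% and 10% of all tested genes. After adjustment limma called 1.11% of all tested genes higher and 1.65% lower. Without knockout replicate 2 limma also called Akr1d1, a bile acid reductase, and Cyp46a1, a cholesterol hydroxylase, lower (adjusted p 0.0202 and 0.041). The higher genes were Cyp7a1, the rate-limiting hydroxylase, at 51.5 ± 11.9 FPKM in knockout and 19.05 ± 1.22 FPKM in wild type, and Cyp7b1, an oxysterol hydroxylase, at 254 ± 57.7 FPKM in knockout and 69.4 ± 24.3 FPKM in wild type (SD, n = 3 each). The call of Cyp7b1 was lost without knockout replicate 1 or 3 or wild type replicate 2 (adjusted p 0.0512 to 0.0798 in limma).

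Because Cyp2c70 and Cyp2c38 were called in opposite directions, their ratio was taken within each library. On the log2(FPKM + 1) scale it was 4.63, 4.12 and 4.13 in knockout replicates 1, 2 and 3 and 1.77, 1.73 and 1.37 in wild type replicates 1, 2 and 3. Each knockout ratio lay above every wild type ratio. The difference of the group means was 2.67, with a two-sided exact permutation p of 0.1, the smallest that 3 against 3 libraries allow. The pair was chosen with its difference known, so this is a description.

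Cyp2c44 is an epoxygenase studied in kidney and blood vessels. Knockout replicates 1, 2 and 3 had 161, 203 and 175 FPKM, against 144, 147 and 130.2 FPKM for wild type replicates 1, 2 and 3. The groups did not overlap, yet the log2 change of 0.35 (SE 0.13, 95% interval 0.05 to 0.66) had an unadjusted p of 0.0292 in limma, 0.207 once adjusted, and was not called. Its nearest tested protein-coding neighbours were not called either. Cpn1, which encodes a carboxypeptidase subunit, was at 129.5 ± 10.5 FPKM in knockout and 124 ± 4.04 FPKM in wild type, and Erlin1 was at 19.5 ± 2.53 FPKM in knockout and 17.9 ± 3.34 FPKM in wild type (SD, n = 3 each). Beside the block, Tbc1d12 was at 1.89 ± 0.303 FPKM in knockout and 1.86 ± 0.264 FPKM in wild type, and Pdlim1, which starts 33.8 kb beyond Cyp2c70, at 17.3 ± 5.10 FPKM in knockout and 13.4 ± 3.86 FPKM in wild type. Neither was called (adjusted p 0.979 and 0.555 in limma).

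Cyp2c37, Cyp2c50 and Cyp2c54, all enzymes that oxidise arachidonic acid, were not called. Cyp2c37 had 187, 213 and 169.9 FPKM in the knockout replicates, in order, against 207, 250.02 and 208 FPKM in the wild type replicates. Cyp2c50 was at 296, 413 and 289.9 FPKM in knockout and at 385, 452 and 344 FPKM in wild type, and Cyp2c54 at 118, 222 and 141 FPKM in knockout and at 154, 169 and 112 FPKM in wild type. The groups overlapped for each, with knockout replicate 2 the highest of the knockout libraries. The 95% intervals of the log2 change were -0.55 to 0.10 for Cyp2c37, -0.67 to 0.17 for Cyp2c50 and -0.48 to 0.71 for Cyp2c54, and a miss of the threshold does not show that their levels were equal. Their sum was 683 ± 142 FPKM in knockout and 760.5 ± 104 FPKM in wild type (SD, n = 3 each), with overlapping libraries. The small change of Cyp2c54 (0.11) turned to -0.15 without knockout replicate 2 and to -0.06 without wild type replicate 3.

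Cyp2c40, which forms a hydroxylated arachidonic acid, had 26.8, 36.8 and 30.8 FPKM in the knockout replicates, against 26.96, 25.9 and 29.4 FPKM in the wild type replicates. Cyp2c68 was at 89.8, 133 and 115 FPKM in knockout and at 93.8, 96.4 and 107 FPKM in wild type. Neither was called (log2 changes 0.18 and 0.17, adjusted p 0.542 and 0.637 in limma), and the groups overlapped for both. The sum of these genes with their close copies Cyp2c67 and Cyp2c69 was 299 ± 36.1 FPKM in knockout and 277 ± 12.98 FPKM in wild type (SD, n = 3 each), again with overlap.

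The table held 6 Cyp2c genes outside the 10. Cyp2c67 and Cyp2c69, whose changes were 0.03 and 0.19 on the log2 scale, were not called. Cyp2c55, an enzyme prominent in the large intestine, had 2.16, 4.04 and 2.04 FPKM in the knockout replicates and 4.08, 5.35 and 4.86 FPKM in the wild type replicates. Its highest knockout value and lowest wild type value lay close together, and its change of -0.65 had an adjusted p of 0.145 in limma, and of 0.0305 without knockout replicate 2. The others did not pass the filter: Cyp2c65 and Cyp2c66, genes of the gut, were at no more than 0.0161 FPKM in any library, and the pseudogene Cyp2c53-ps, which overlaps Cyp2c29 in the annotation, was at 0.411 to 1.14 FPKM in knockout and 0.429 to 0.686 FPKM in wild type.

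The total of the 10 genes was 1638.8, 2160.9 and 1588.5 FPKM in knockout replicates 1, 2 and 3 and 1813.6, 2051.4 and 1785.9 FPKM in wild type replicates 1, 2 and 3, with overlapping groups. Knockout replicate 2 had the highest value of its group for 8 of the 10 genes. What differed was the makeup of the total. Cyp2c29 held 27.4% ± 2.06 of it in knockout and 36.8% ± 1.36 in wild type, Cyp2c70 held 15.8% ± 2.60 in knockout and 6.47% ± 0.516 in wild type, and Cyp2c44 held 10.1% ± 0.839 in knockout and 7.46% ± 0.406 in wild type (SD, n = 3 each). These shares did not overlap between groups, nor did those of Cyp2c37, Cyp2c38, Cyp2c39 and Cyp2c50. For Cyp2c37 and Cyp2c50 the groups nearly touched. Cyp2c37 held 11.4% in both knockout replicate 1 and wild type replicate 1. Cyp2c50 held 19.1% in knockout replicate 2 and 19.3% in wild type replicate 3. Such shares were not computed for other genes. Shares of 1 total are tied to one another, and no test was made of them.

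**Figure D4:**
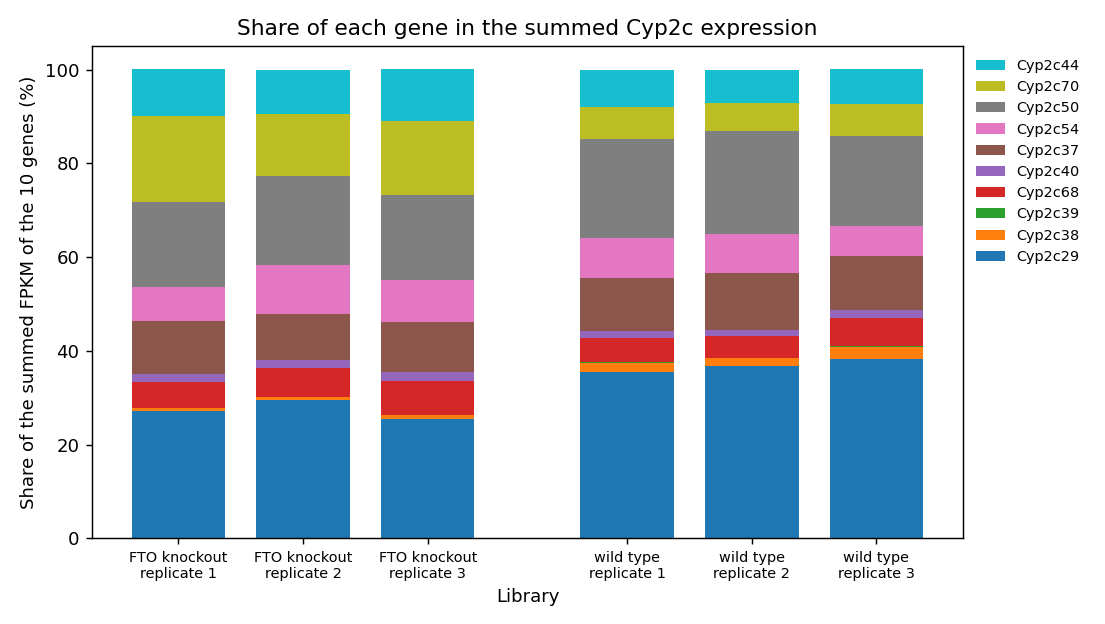
Share of each of the 10 Cyp2c genes in their summed FPKM (percent), stacked, for each library; FTO knockout replicates 1 to 3 stand left of wild type replicates 1 to 3. Cyp2c70 holds 13.3% to 18.5% in knockout libraries and 5.88% to 6.85% in wild type libraries, while Cyp2c29 holds 25.4% to 29.5% in knockout and 35.5% to 38.2% in wild type.

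Across the 6 libraries, Cyp2c38 and Cyp2c39 had a Pearson r of 0.99 on the log2(FPKM + 1) scale, Cyp2c37 and Cyp2c50 one of 0.93, Cyp2c40 and Cyp2c68 one of 0.96, and Cyp2c38 and Cyp2c70 one of -0.97. The points share libraries and the difference between groups, so these are descriptions, and close copies may share fragments. Outside the family, the tested genes with the pattern most like Cyp2c38 were Hadh, Abhd17a, Them7, Osbpl3 and Pnldc1 (r of 0.9935 or above). Those most like Cyp2c39 were Osbpl3, Fbf1, Parl, Dhps and Scamp5, and those most like Cyp2c70 were Fer, Grb7 and the near-identical copies Tmem254b, Tmem254a and Tmem254c. Of these, Hadh, a mitochondrial enzyme of fatty acid oxidation, was at 146 ± 7.71 FPKM in knockout and 217 ± 13.2 FPKM in wild type (SD, n = 3 each). Its call as lower (adjusted p 0.0483 in limma) held in 4 of 12 alternatives, and it was lost on leaving out any 1 library but wild type replicate 3.

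P450 enzymes depend on electron transfer and heme. Of 18 genes of electron supply and heme, 1 fell, 0 rose and 17 were not called, with a median log2 change of -0.26. By an unadjusted p under 0.05 in limma 7 were lower and 0 higher, against 10% and 8.65% of all tested genes. The groups did not overlap for 8 of the 18 genes, against 24.5% of all tested genes. The called gene was Pgrmc2, a membrane protein that binds heme (adjusted p 0.0182 in limma). It was at 16.0 ± 0.136 FPKM in knockout and 26.7 ± 2.49 FPKM in wild type (SD, n = 3 each). That call was lost without any 1 knockout library or without wild type replicate 2 (0.0590 to 0.0823). The related Pgrmc1 was at 609.9 ± 25.6 FPKM in knockout and 759.6 ± 23.4 FPKM in wild type, without overlap and not called, and cytochrome b5 (Cyb5a) was at 2041 ± 243 FPKM in knockout and 1993 ± 377 FPKM in wild type.

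Of 29 tested regulators known to act on Cyp2c genes or on P450 genes of liver, 1 rose, 0 fell and 28 did not pass, with a median log2 change of -0.03. Onecut1, a hepatocyte transcription factor, was at 4.72 ± 1.98 FPKM in knockout and 1.30 ± 0.353 FPKM in wild type (adjusted p 0.0391 in limma). Its call was lost without knockout replicate 1 or 3 or wild type replicate 1 or 2 (0.0601 to 0.138). The pregnane receptor gene Nr1i2 was called lower with median ratio size factors and with quantile normalization (adjusted p 0.0487 and 0.0404 in limma), and without wild type replicate 3 Stat5a was called lower and Bcl6 higher (0.0498 and 0.0396). The xenobiotic receptor CAR (Nr1i3) was at 103 ± 29.0 FPKM in knockout and 123 ± 3.19 FPKM in wild type (adjusted p 0.492), and Hnf4a was at 89.7 ± 10.4 FPKM in knockout and 71.8 ± 6.33 FPKM in wild type (adjusted p 0.258; SD, n = 3 each). Of 22 tested CAR target genes outside the family, 5 fell, 0 rose and 17 did not pass, with a median log2 change of -0.36. By an unadjusted p under 0.05 in limma 10 were lower and 0 higher, against 10% and 8.65% of all tested genes. The called genes were Cyp2b9, Cyp2b13, Cyp3a25, the aldehyde dehydrogenase gene Aldh1a7 and the export pump gene Abcc2. Cyp2b9 and Cyp2b13 are also in the list of female-biased genes below. Cyp2b9 was at 0.610 ± 0.679 FPKM in knockout and 53.7 ± 36.9 FPKM in wild type (SD, n = 3 each), a log2 change of -4.88 (adjusted p 0.00597 in limma), and was called in 12 of 12 alternatives. Cyp3a25 was at 319 ± 40.7 FPKM in knockout and 510.3 ± 35.8 FPKM in wild type, with an adjusted p of 0.0496 in limma, a call that held in 3 of 12 alternatives. The count of 5 lower genes was 1 without any 1 knockout library or without wild type replicate 2, and 2 when low genes were kept.

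Of 17 tested genes of arachidonic acid epoxides and eicosanoids, 1 fell, 0 rose and 16 did not pass, with a median log2 change of -0.21. The lower gene was Cyp2j9, another P450 epoxygenase, at 2.60 ± 0.993 FPKM in knockout and 8.21 ± 1.6 FPKM in wild type (SD, n = 3 each; adjusted p 0.0178 in limma), a call lost without knockout replicate 3 or wild type replicate 2 (0.0648 to 0.0915). Without knockout replicate 2 the prostaglandin dehydrogenase gene Hpgd was also called lower (log2 change -0.95, adjusted p 0.0236 in limma), and without wild type replicate 3 the phospholipase gene Pla2g7 was called higher (1.01, 0.0355). Soluble epoxide hydrolase (Ephx2), which hydrolyses the epoxides, was at 391 ± 57.0 FPKM in knockout and 447 ± 71.4 FPKM in wild type, and microsomal epoxide hydrolase (Ephx1) at 281 ± 63.2 FPKM in knockout and 389 ± 72.1 FPKM in wild type, neither called. Of 17 tested genes of retinoid metabolism, 1 was lower (Rdh16, a retinol dehydrogenase, at 22.4 ± 5.78 FPKM in knockout and 43.6 ± 5.26 FPKM in wild type), 0 rose and 16 did not pass, with a median log2 change of -0.02. The call of Rdh16 was lost without any 1 library but knockout replicate 2 (adjusted p 0.0573 to 0.165 in limma). At an unadjusted p under 0.05 in limma, 3 retinoid genes were lower and 1 higher, again against 10% and 8.65% of all tested genes.

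Several Cyp2c genes are known to be strongest in hepatocytes near the central vein. Of 23 tested pericentral genes outside the family, 2 were higher (Cyp7a1 and the ribonuclease gene Rnase4), 0 fell and 21 did not pass, with a median near 0. The call of Rnase4 was lost without knockout replicate 1 or 3 or wild type replicate 2 (adjusted p 0.0512 to 0.0683 in limma). Of 23 tested periportal genes limma called 0, though 5 were higher and 3 lower by an unadjusted p under 0.05, a threshold that 18.7% of all tested genes passed (8.65% higher). The median log2 change was -0.03. With wild type replicate 3 left out 2 were higher and 1 lower. Rodent Cyp2c genes are also known for differences between the sexes. Of 25 tested male-biased liver genes, 9 rose, 0 fell and 16 did not pass. Among 18 tested female-biased genes 1 rose, 7 fell and 10 did not pass. The shares called over all tested genes were 1.11% higher and 1.65% lower. Both lists were chosen with earlier results of these data known, so their counts are descriptions. The median log2 changes of these lists were 0.71 and -0.45. Both lists share genes with lists above. Cyp7b1, counted with bile acid synthesis, is among the higher male-biased genes. Cyp2b9 and Cyp2b13, counted as CAR targets, are among the lower female-biased genes. With 1 library left out 2 to 10 of the male-biased genes were higher, fewest without knockout replicate 3, and 3 to 7 of the female-biased genes were lower, fewest without knockout replicate 1 or 3. Among the male-biased genes, the selenium-binding protein gene Selenbp2 was at 317 ± 41.3 FPKM in knockout and 71.1 ± 9.54 FPKM in wild type, and among the female-biased genes the thioesterase gene Acot3 was at 7.33 ± 0.505 FPKM in knockout and 25.3 ± 4.17 FPKM in wild type (SD, n = 3 each). Selenbp2 and Acot3 were called in 12 of 12 alternatives. The female-biased lipase gene Lpl went the other way, at 2.60 ± 0.497 FPKM in knockout and 1.19 ± 0.0593 FPKM in wild type. Its call as higher (adjusted p 0.028 in limma) held in 7 of 12 alternatives. Sult1e1, Cyp3a16, Cyp3a41a, Cyp3a41b and Cyp3a44 of the female-biased list were not called. Their log2 changes were 1.67, -0.17, 0.05, 0.06 and 0.04. The epidermal growth factor receptor gene Egfr, also male-biased, was at 44.5 ± 10.1 FPKM in knockout and 15.1 ± 3.14 FPKM in wild type, a call lost without knockout replicate 1 or 3 (adjusted p 0.0593 to 0.0741 in limma) and with low genes kept (0.0536). Elovl3, a fatty acid elongase gene of the male-biased list, was at 100.5 ± 13.6 FPKM in knockout and 135 ± 14.0 FPKM in wild type (log2 change -0.43, adjusted p 0.173 in limma, not called). The male-biased urinary protein genes Mup1 and Mup7 were not called: both were listed at 0 in the 3 knockout libraries and in wild type replicates 1 and 2, against 4106 and 4296 FPKM in wild type replicate 3.

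**Figure D5:**
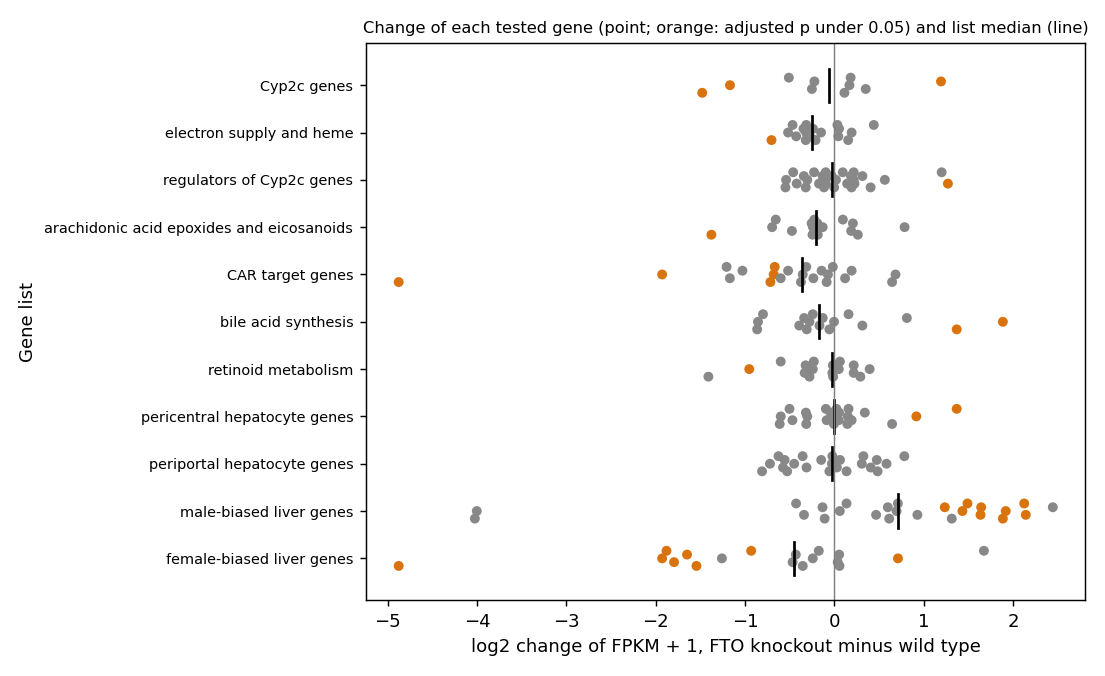
Log2 change of FPKM + 1, knockout minus wild type, of each tested gene (points; orange, adjusted p under 0.05 in limma) in the Cyp2c genes and 10 gene lists; the vertical line is the list's median. Called Cyp2c genes lie on both sides of 0, while the 9 called male-biased genes lie above it. The lists were chosen with earlier results of these data known. The male-biased points near -4 are Mup1 and Mup7, not called and above 0 FPKM in 1 library only.

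Of the 10 hepatocyte markers, 6 were higher and 0 lower by an unadjusted p under 0.05 in limma. The shares over all tested genes were 8.65% and 10%. The median log2 change of the markers was 0.34. Only Ahsg, a plasma glycoprotein gene, passed adjustment, at 4548 ± 292 FPKM in knockout and 2908 ± 45.6 FPKM in wild type (SD, n = 3 each; adjusted p 0.0425 in limma), a call that held in 4 of 12 alternatives. Markers of other cell types were summed per library. The 8 Kupffer cell markers summed to 137 to 236 FPKM in knockout and 51.6 to 168 FPKM in wild type, and limma called 0 of the 8, with 3 of them higher by an unadjusted p under 0.05, against 8.65% of all tested genes. The 4 adipocyte markers summed to 0.610 to 1.25 FPKM in knockout and 4.35 to 6.73 FPKM in wild type, nearly all of it Cfd, while Adipoq was at 0 in knockout and at 0.233 FPKM or less in wild type. Of the 5 markers of intestinal epithelium, Cdx2 was at 0 in every library and Fabp2, also expressed in liver, made up nearly the whole sum of 83.2 to 116 FPKM in knockout and 164 to 343 FPKM in wild type. The sums of 6 sinusoidal endothelial, 6 stellate and 5 cholangiocyte markers overlapped between groups. The part of hepatocyte content and of other cells in the Cyp2c changes was not tested.

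GGACT, a core in which m6A is often found, was counted in the letters of 1 transcript per gene. It was absent from 5 of the 10 Cyp2c transcripts, among them Cyp2c38 and Cyp2c39, occurred 1 time in 3, among them Cyp2c70, and 2 times in 2. Among 6850 protein-coding transcripts of 1600 to 3000 bases the median count was 2, and 9.8% had none. Lengths were not matched: all Cyp2c transcripts but that of Cyp2c38 (2869 bases) had 1717 to 1916 bases, and shorter transcripts offer fewer places for a match. Cyp2c29, Cyp2c38 and Cyp2c39, all without GGACT, are close copies and not independent counts. Methylation was not measured in these libraries.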

How the data were processed

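FPKM values were deposited by the authors as 1 table of 25690 genes under Ensembl identifiers; all 6 sample columns were used. The submitters' processing notes name TopHat2 2.1.0, HTSeq, Cufflinks 2.2.1 and the build mm10, without roles; the sources used here do not give the annotation release. Of 49322 deposited values with 7 digits 95.6% end in 5, as a mean of 2 shorter values would; what was averaged is not stated. Symbols and positions came from GENCODE M21 (GRCm38; 24807 identifiers matched), promoters from RefSeq (GRCm38.p6).

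Knockout and wild type were compared by limma 3.58.1 (R 4.3.3; intensity trend, two-sided) on log2(FPKM + 1) of all 6 libraries, keeping genes whose 6-library mean reached 1 FPKM; the fit was tested on simulated data. Folds are ratios of mean FPKM. Depth was inferred from 964 genes with 1 transcript of 3000 to 8000 bases, reading low FPKM as 1 fragment within a window of depths set after the values were seen. Coding sequences were aligned with Biopython 1.88; proteins were planned and coding bases used instead. Replicate numbers follow sample order.

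The genes and lists were chosen with earlier results of these data known. Named by rule are all Cyp2c genes, flanking genes, called list members (up to 5 a list), abundant members of 3 lists, and the 5 genes most correlated with each called gene. Cell type markers and list genes called only under an alternative (such as Akr1d1 and Nr1i2) are named outside that rule. So are Elovl3, Mup1, Mup7, Sult1e1 and the uncalled female-biased Cyp3a genes, which were picked after their values were seen. The alternatives were median ratio size factors, quantile normalization, equal sums over nuclear genes, pseudocount 0.1, no filter, robust empirical Bayes and leaving out each library.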

Additional observations from a re-analysis of the deposited data

How the results depend on the processing

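No paired analysis was possible because the labels give the groups no shared replicate numbers. Over the 12 alternatives Cyp2c38 and Cyp2c70 were called each time. Cyp2c39 was not called with no filter on low values (log2 change -1.17, adjusted p 0.0534), where 1 of the 10 genes was lower. Its log2 change ran from -1.27 to -0.99 with 1 library left out, and 1 or 2 of the 10 genes were then lower. The change of Cyp2c54 ran from -0.15 to 0.31 with 1 library left out, and it was not called in any setting. Of all tested genes 115 were higher and 172 lower; 180 were higher with quantile normalization and 93 were lower with no filter. With 1 library left out 43 to 312 were higher and 49 to 240 lower, fewest without knockout replicate 3 and most without wild type replicate 3. Of the 11 pathway lists 13 genes were higher and 13 lower, 5 and 5 with no filter, and 3 to 18 and 3 to 14 with 1 library left out. Uncalled changes near 0 reversed with 1 library left out, where they ran from -0.0694 to 0.1903 for Cyb5a, -0.0034 to 0.1462 for Nr1h4, -0.0732 to 0.0684 for Tbc1d12, -0.0091 to 0.0993 for Cpn1 and -0.0101 to 0.0627 for Cyp2c67. The cause of these changes was not tested. Depth limits Cyp2c39 most, and intervals cover the spread between libraries only.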
